A study of Drosophila melanogaster with 3 samples.

Results

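This account describes where a GFP-tagged transcription factor was found at 10 genes of protein folding and protein quality control in the endoplasmic reticulum (ER) of Drosophila melanogaster, namely Ire1, PEK, Gcn2, Hsc70-3, Gp93, Pdi, ERp60, Sec61alpha, Hrd3 and sip3. The genes were chosen by name and found by their symbols in the Ensembl annotation of the dm6 assembly, 10 of 13945 protein-coding genes on 6 chromosome arms, and all 10 had a match. Peaks were taken where their summit, the position of highest signal, lay inside a gene or within 2 kb of it. The data come from chromatin immunoprecipitation with an anti-GFP antibody and sequencing in whole embryos of both sexes, 0 to 24 h old, in 3 biological replicates numbered 1, 2 and 4 that form a single group. All 3 carry a stable transgene with GFP at the C-terminus and come from the same line, whose strain label is CG18619-GFP. The labels differ on which protein is tagged, since the strain and antibody fields name CG18619 (REPTOR-BP) and the description and a note name REPTOR, so the regions are called peaks of the tagged protein. No untagged, untreated or mutant group was analysed here, and no condition was compared. In whole embryos the cell types in which a peak arose cannot be told apart.

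The lumen of the ER is where secreted and membrane proteins are threaded through the Sec61 channel, folded by chaperones and joined by disulfide bonds. When unfolded proteins build up, the transmembrane sensors Ire1 and PEK (the fly PERK) start the unfolded protein response: Ire1 splices the mRNA of the bZIP factor Xbp1, and PEK phosphorylates the translation initiation factor eIF2alpha. Gcn2 phosphorylates the same factor when amino acids are scarce, and proteins that cannot be folded are returned to the cytosol for degradation by the Hrd3 and Hrd1 (sip3) ubiquitin ligase. REPTOR and REPTOR-BP are bZIP factors of the response to reduced TORC1 signalling, which also senses amino acids.

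Each list ranks regions by a signal value given by the authors' peak caller on that list's own scale, so signal is compared within a list and rank between lists. The optimal list held 5208 peaks, with signal from 148.2 to 4036 and a median of 252.0, and each replicate list and the pooled list held 30000 regions, peaks and background together. The lists carry no read counts, so depth is unknown. Replicate 2 stood somewhat apart: taking the strongest 5208 regions per replicate and matching summits within 100 bp, 62.6% of those of replicate 1 were met in replicate 2 and 59.5% of those of replicate 2 in replicate 4, whereas 74.0% of those of replicate 1 were met in replicate 4. The optimal list was made from these same replicates, so a match between it and them is in part built in.

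At the 10 genes lay 13 optimal peaks, and they fell into 3 kinds of place. In the promoter of the gene itself, within 500 bp of a start site, lay 5 peaks, at Hrd3, Sec61alpha, Ire1, Gp93 and ERp60. In an intron and in no promoter lay 3, at Ire1, Sec61alpha and ERp60. The other 5 lay in the promoter of a neighbouring gene only, near Pdi, sip3, Hrd3 and, with 2 peaks, ERp60. PEK, Gcn2 and Hsc70-3 had no optimal peak inside the gene or within 2 kb. In all, 7 of the 10 genes had an optimal summit inside or within 2 kb, against 36.1% of all protein-coding genes, and 5 had a promoter peak, against 20.6%. Those 5 genes were also the only ones of the 10 with an optimal summit in their own promoter or gene body, a share that was not computed over all genes. No test was made of these counts, which rest on 10 genes picked by name.

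**Figure D1:**
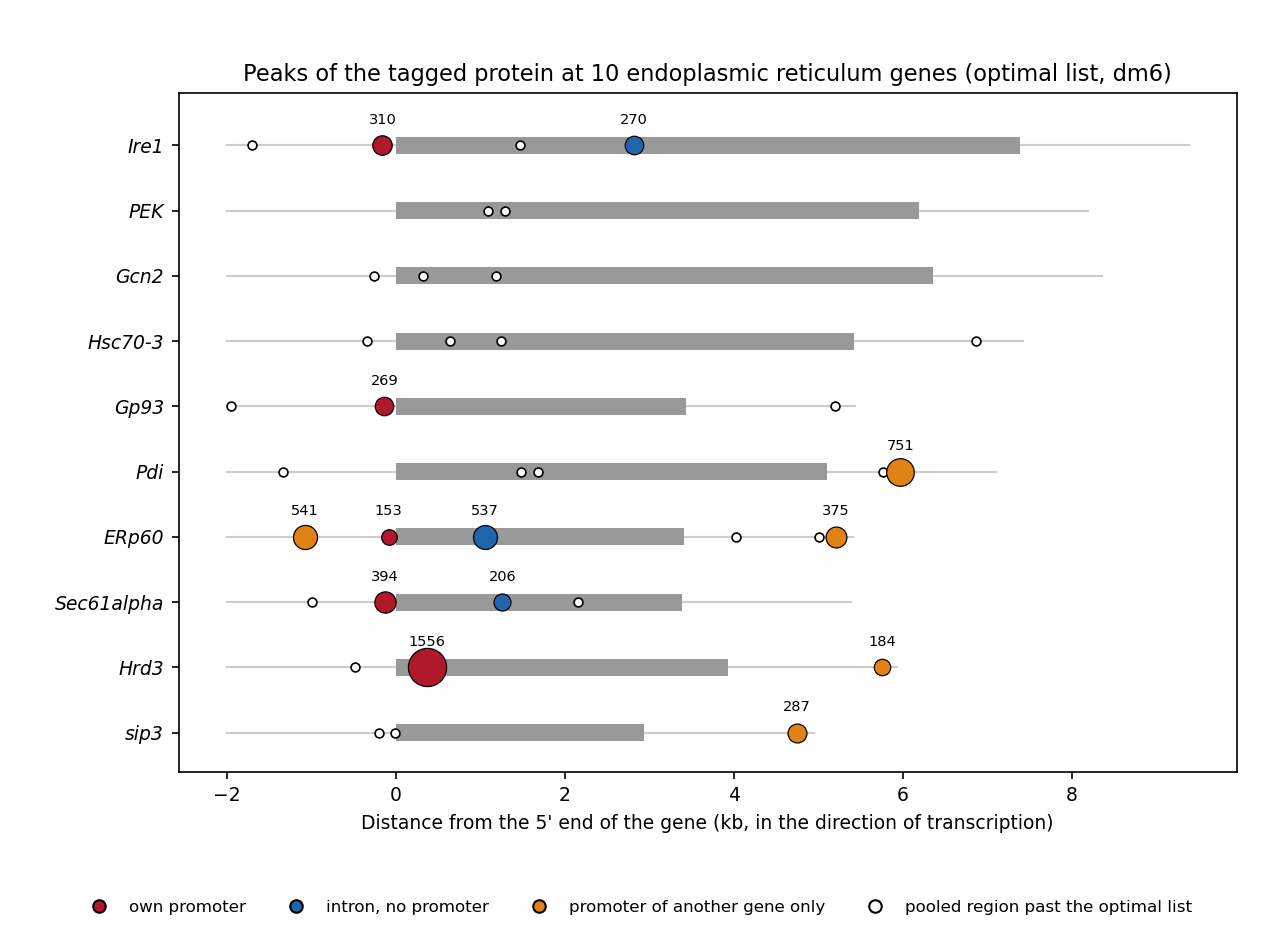
Optimal peaks (filled circles, area increasing with signal, signal printed above) and pooled regions past the end of the optimal list (open circles) along the 10 genes, as distance in kb from the 5' end of each gene; the grey bar is the gene and the thin line 2 kb to each side. Hrd3 has the strongest peak (1556), and PEK, Gcn2 and Hsc70-3 have open circles only.

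The summit windows that carry these results are given below, so that the promoter peaks can be set beside the intron peaks. Each runs from 50 bp before to 50 bp after the summit, on the strand of the gene, from the RefSeq copy of the dm6 assembly, and capitals mark TGACG on either strand.
Hrd3 promoter (chr3R:23758133-23758233, minus strand): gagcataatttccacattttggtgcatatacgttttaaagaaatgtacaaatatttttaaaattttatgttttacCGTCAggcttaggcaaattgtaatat
Sec61alpha promoter (chr2L:6480651-6480751, minus strand): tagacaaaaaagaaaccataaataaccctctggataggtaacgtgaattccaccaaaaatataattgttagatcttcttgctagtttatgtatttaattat
Ire1 promoter (chr3R:19861399-19861499, minus strand): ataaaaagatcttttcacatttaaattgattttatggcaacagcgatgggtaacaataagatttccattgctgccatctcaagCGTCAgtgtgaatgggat
Gp93 promoter (chr3R:27948528-27948628, plus strand): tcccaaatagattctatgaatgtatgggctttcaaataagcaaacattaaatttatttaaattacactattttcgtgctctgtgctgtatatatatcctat
Ire1 intron (chr3R:19858426-19858526, minus strand): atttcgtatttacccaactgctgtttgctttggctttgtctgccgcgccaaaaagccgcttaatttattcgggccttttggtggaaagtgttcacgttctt
Sec61alpha intron (chr2L:6479262-6479362, minus strand): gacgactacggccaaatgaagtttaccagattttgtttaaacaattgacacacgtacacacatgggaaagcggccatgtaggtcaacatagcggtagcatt
The capitals CGTCA in the Hrd3 and Ire1 promoters are TGACG, the core of the cAMP response element that many bZIP dimers bind, read on the other strand. The other 4 windows held no match to any of the 15 motifs searched. The G and C content of the 5 windows in the genes' own promoters was 26.7% at Hrd3, 27.7% at Sec61alpha and Gp93, 30.7% at ERp60 and 35.6% at Ire1. The 3 intron windows had 37.6% at ERp60, 43.6% at Sec61alpha and 44.6% at Ire1, so the lowest intron and the highest of these promoter windows lay close together. The 5 windows in promoters of other genes only had 32.7% and 52.5% near ERp60, 41.6% near Pdi, and 46.5% near both Hrd3 and sip3. Low G and C content was thus not general to the promoter windows. The mean over all 5208 optimal summits was 34.8% ± 9.37 (SD over peaks).

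Among the sensors, Ire1 was the one with optimal peaks. Ire1 (FBgn0261984, chr3R:19853908-19861291, minus strand) had a single annotated start site, and its promoter peak (chr3R:19861221-19861676, signal 309.7, rank 1871) had its summit 158 bp upstream of it. The matching region ranked 1856 in replicate 1, 4712 in replicate 2 and 1479 in replicate 4, a mean of 2682 ± 1768 (SD, n = 3), so it was within the strongest 5208 of all 3 and lowest in replicate 2. The same summit lay within 500 bp of a start site of Mrm2, a mitochondrial rRNA methyltransferase gene on the opposite strand, whose start site is 319 bp from that of Ire1. The other peak of Ire1 (chr3R:19858248-19858703, signal 270.0, rank 2353) lay in an intron, 2815 bp downstream of the start site. There the order of the replicates was different, with ranks of 1733, 1820 and 4060 in replicates 1, 2 and 4, and replicate 4 was lowest.

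PEK and Gcn2, the eIF2alpha kinases, had no optimal peak, and the pooled regions at their start sites ranked past the end of the optimal list. PEK (FBgn0037327, chr3R:5458563-5464753, minus strand) has 3 start sites, and the strongest pooled region within 500 bp of any of them had a signal of 80.5 and rank 11264, past the end of the optimal list at 5208. Replicates 1 and 4 listed no region inside PEK or within 2 kb, and replicate 2 listed 5, the strongest at rank 7373 (signal 42.4). PEK was thus listed by a single replicate. Gcn2 (FBgn0019990, chr3R:31395660-31402013, plus strand) had a pooled region at rank 8836 (signal 97.3), 259 bp upstream of its only start site. The region matching it ranked 15716 in replicate 1 and 4427 in replicate 2, and replicate 4 listed none there. The only region of replicate 4 at Gcn2 lay 305 bp downstream of the start site, at rank 15865. Replicate 2 alone placed a promoter region of Gcn2 among its strongest 5208. Gcn2 shares the upstream stretch with Ugt35D1, a glycosyltransferase gene on the opposite strand whose start site is 356 bp away.

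The chaperones differed in the same way. Gp93 (FBgn0039562, chr3R:27948711-27952151, plus strand), the fly member of the GRP94 family of Hsp90-type chaperones, had a promoter peak (chr3R:27948350-27948805, signal 269, rank 2368) with its summit 133 bp upstream of its start site. It ranked 2075, 1939 and 2033 in replicates 1, 2 and 4, a mean of 2016 ± 69.6 (SD, n = 3), the smallest spread on the log10 scale of any peak at the 10 genes (SD 0.0151, against 0.0506 for the next, near Pdi). It was also the only promoter peak of the 5 with no other protein-coding start site within 500 bp of the summit. The start site of mfrn, a mitochondrial iron carrier gene, lies 690 bp from that of Gp93 on the opposite strand. With a promoter distance of 1000 bp in place of 500 bp, all 5 promoter peaks were shared with another gene. A wider distance can only add neighbours, and the share over all genes at 1000 bp was not computed.

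Hsc70-3 (FBgn0001218, chrX:11801696-11807117, minus strand) encodes BiP, the main Hsp70-type chaperone of the ER lumen and a classical target of the unfolded protein response. It has 4 start sites and no optimal peak. Its strongest pooled promoter region had a signal of 104.9 and rank 8063, 341 bp upstream of the most distal start site. The strongest promoter region of each replicate ranked 11474 in replicate 1, 3455 in replicate 2 and 11558 in replicate 4. In replicate 4 this was a different region, 97 bp upstream of another start site, and its region matching the pooled one ranked 13981. As at Gcn2, replicate 2 alone placed a promoter region among its strongest 5208, and it listed 7 regions at Hsc70-3 against 2 in each of the others. Over the 10 genes together, replicate 2 listed 49 regions inside or within 2 kb, replicate 1 listed 30, replicate 4 listed 27 and the pooled list 37. What part the makeup of the replicate 2 list had in these ranks was not tested.

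Hrd3, the partner of the Hrd1 ligase in ER-associated degradation, had by far the strongest peak of the 10 genes. Hrd3 (FBgn0028475, chr3R:23754623-23758557, minus strand) has 2 start sites, and the summit of the peak (chr3R:23757887-23758420, signal 1556, rank 68) lay between them, 166 bp upstream of the inner one and within an intron of the longer transcript. The matching region ranked 53 in replicate 1, 169 in replicate 2 and 53 in replicate 4, a mean of 91.7 ± 67.0 (SD, n = 3). Only 1.29% of optimal peaks were stronger. PTPMT1, a mitochondrial phosphatase gene on the opposite strand, has a start site 156 bp from the summit, so the peak was shared, and another one 51 bp from the outer start site of Hrd3. A weaker peak beyond the 3' end of Hrd3 (chr3R:23752575-23753030, signal 184, rank 3953) lay 31 bp from a start site of RanBP3 and in the promoter of Rpt5, a proteasome ATPase gene. It had a match in replicates 1 and 2, at ranks 2730 and 3839, and none among the 30000 regions of replicate 4.

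The ligase gene itself, sip3 (FBgn0039875, chr3R:31772219-31775163, plus strand), which encodes Hrd1, had no optimal peak in its promoter. The strongest pooled region there had a signal of 130.6 and rank 6110, upstream of the start site, and the matching region ranked 18630 in replicate 1 and 5952 in replicate 4. Replicate 2 listed no summit within 100 bp of it, and its own promoter region, 85 bp from the start site, ranked 4899. Among the promoters of the 10 genes, the pooled region of sip3 was the nearest past the end of the optimal list. The optimal peak assigned to sip3 by distance (chr3R:31776741-31777196, signal 287, rank 2140) lay 1806 bp past its 3' end and 51 bp from a start site of faf, a deubiquitinase gene, and was also in the promoter of CG2126. Its ranks were 1502, 9861 and 1551 in replicates 1, 2 and 4, so it was outside the strongest 5208 of replicate 2.

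The translocon gene Sec61alpha (FBgn0086357, chr2L:6477182-6480575, minus strand), which encodes the pore subunit of the protein-conducting channel, had a promoter and an intron peak. The promoter summit (chr2L:6480473-6480928, signal 394, rank 1290) lay 126 bp upstream of a start site and also within 500 bp of one of Daxx, a histone chaperone gene on the opposite strand. The matching region ranked 1297 in replicate 1, 4856 in replicate 2 and 928 in replicate 4. In replicate 2 the strongest region of the promoter was another one, at rank 2090 and 1 bp from a start site. The intron peak (chr2L:6479084-6479539, signal 206, rank 3415) lay 1154 bp downstream of a start site, and here replicate 2 was highest, with ranks of 4952, 1292 and 5986 in replicates 1, 2 and 4.

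The protein disulfide isomerase genes had strong peaks nearby, most of them at the start sites of other genes. Pdi (FBgn0286818, chr3L:15137738-15142840, minus strand) had no region within 500 bp of either of its start sites in the pooled list or in any replicate list, the only one of the 10 genes of which this held. The peak counted for it (chr3L:15136624-15137006, signal 751, rank 397) lay 872 bp past its 3' end, 68 bp from a start site of CG12316 and in a 5' untranslated exon of that gene. It ranked 494, 393 and 424 in replicates 1, 2 and 4, and no replicate stood apart.

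ERp60 (FBgn0033663, chr2R:11887568-11890979, minus strand), another disulfide isomerase, had 4 optimal peaks, the most of the 10 genes. The peak of its own promoter was the weakest of all 13 (chr2R:11890834-11891289, signal 153, rank 4984), with its summit 83 bp upstream of its start site and 73 bp from a start site of eEF1alpha1, which encodes a translation elongation factor and whose start site is 156 bp from that of ERp60. It ranked 2543 in replicate 1, 15769 in replicate 2 and 12587 in replicate 4, so replicate 1 alone placed it among its strongest 5208. An intron peak 1056 bp downstream of the start site was stronger (chr2R:11889816-11890069, signal 537, rank 730), with ranks of 522, 415 and 1848. So was a peak inside eEF1alpha1 (chr2R:11891915-11892189, signal 541, rank 721), 69 bp from a start site of that gene, with ranks of 961, 983 and 498. The fourth (chr2R:11885666-11885873, signal 375, rank 1384) lay 1797 bp past the 3' end of ERp60 in the promoter that CG13185 shares with cuff, a gene of the germline piRNA pathway.

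**Figure D2:**
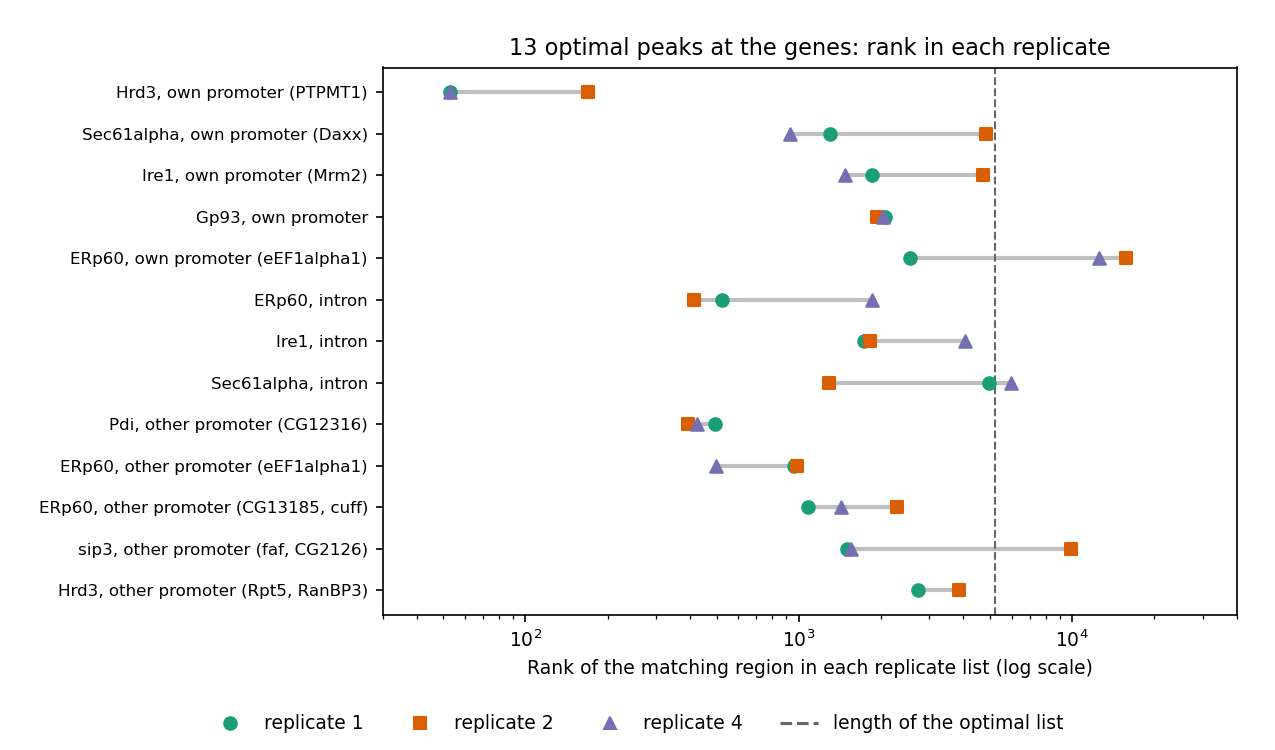
Rank in each replicate list (log axis, strongest at the left) of the region matching each of the 13 optimal peaks within 100 bp, ordered by kind of place and then by signal, with other genes of the same promoter in brackets. The grey bar spans the replicates and the dashed line is rank 5208; the Hrd3 promoter peak lies far to the left of all others, and the ERp60 promoter peak spans from 2543 to 15769.

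Of the 13 peaks, 9 had a match in the strongest 5208 regions of all 3 replicates, against 53.4% of all optimal peaks, and 12 had one anywhere in all 3 lists, against 83.2%. The 4 that fell short of the stricter count were the ERp60 promoter, the Sec61alpha intron, and the promoters next to sip3 and Hrd3. Matched within 50 bp, in place of 100 bp, 4 of the 13 were in the strongest regions of all 3, against 37.6% of all optimal peaks. The median signal of the 13 was 309.7, against 252.0 over all optimal peaks. Of the 13, 10 were among the strongest 2604 of the 5208 optimal peaks. The 5 promoter peaks had the same median of 309.7, against 294.0 over the 2048 peaks that are the strongest at some promoter.

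The order of the 10 promoters was firm at its top only. Ranked by the strongest region within 500 bp of a start site, Hrd3 had a mean rank of 72.3 ± 33.5 over the replicates (SD, n = 3; 53 to 111) and did not overlap with the next gene, Sec61alpha, at 1438 ± 594 (928 to 2090). Sec61alpha, Gp93 (1939 to 2075) and Ire1 (1479 to 4712) overlapped in their ranges. Below them the spread was wider than the steps between genes: Hsc70-3 had a mean rank of 8829 ± 4654, sip3 9827 ± 7642, ERp60 10300 ± 6903 and Gcn2 12003 ± 6561. The optimal list ended inside this lower group, with ERp60 just within it and sip3, Hsc70-3, Gcn2 and PEK past it.

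**Figure D3:**
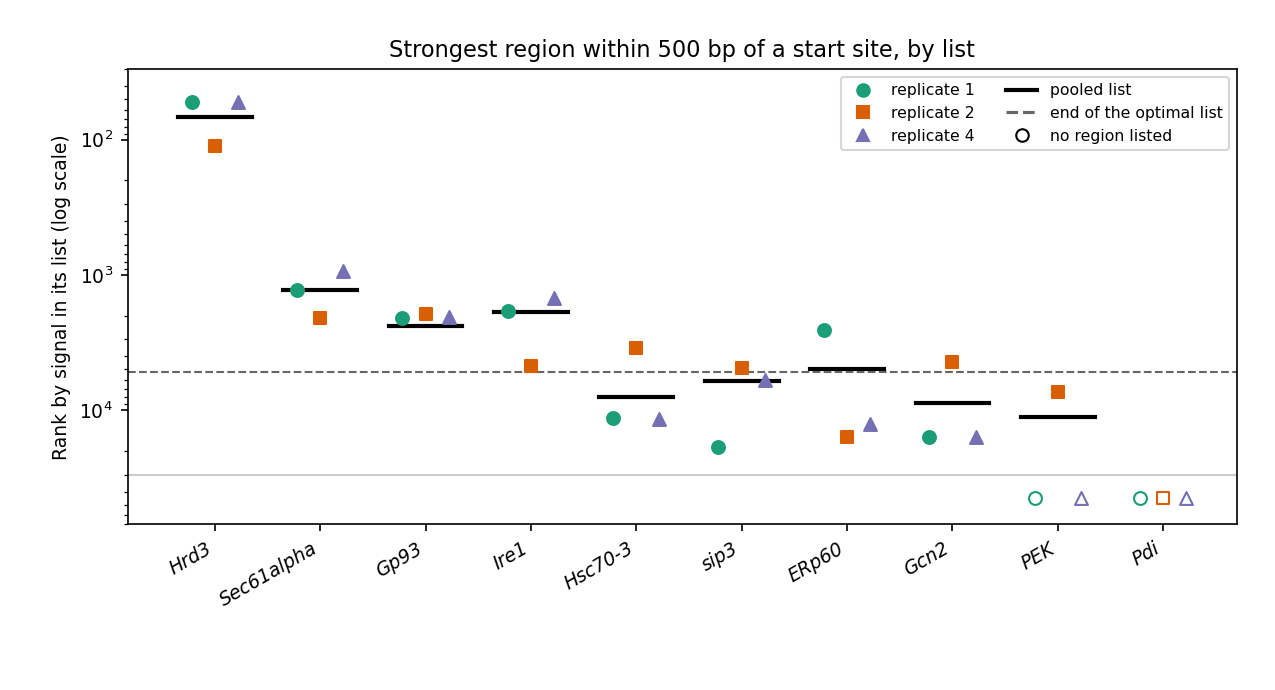
Rank by signal (log axis, strongest at the top) of the strongest region within 500 bp of a start site of each gene in the 3 replicate lists (symbols) and the pooled list (black bars); the dashed line is the end of the optimal list at 5208, and open symbols mean that no region was listed. Hrd3 stands apart in every list, and replicate 2 ranks Hsc70-3, sip3, Gcn2 and PEK higher than replicates 1 and 4 do.

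Counted in each replicate's strongest 5208 regions, a promoter region was found at 5 of the 10 genes in replicate 1 (20.0% of all protein-coding genes), 7 in replicate 2 (21.2%) and 4 in replicate 4 (20.2%). Hrd3, Sec61alpha, Gp93 and Ire1 were found in all 3. ERp60 was found in replicate 1 alone, and Gcn2, Hsc70-3 and sip3 in replicate 2 alone. With all 30000 regions of a list, background included, it was 9 of 10 in the pooled list (46.3% of all genes), 8 in replicate 1 (44.4%), 9 in replicate 2 (52.0%) and 8 in replicate 4 (41.8%).

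Most of these genes had a close neighbouring start site. Of the 10, 7 had the start site of another protein-coding gene within 1000 bp on either strand, against 42.9% of all protein-coding genes. Each of the 7 neighbours was on the opposite strand, and the share of opposite-strand neighbours over all genes was not computed. Of the 5 promoter peaks 4 were shared with one of these neighbours, against 56.6% of the genes with a promoter peak that shared it with any gene. The peaks at Hrd3, Sec61alpha, Ire1 and ERp60 thus cannot be assigned to these genes rather than to PTPMT1, Daxx, Mrm2 and eEF1alpha1. Gcn2 and sip3 had start sites of Ugt35D1 and betaGlu within 356 and 371 bp and no optimal promoter peak. Their strongest pooled promoter regions ranked 8836 and 6110, and replicate 2 placed its own at ranks 4427 and 4899. Whether a close neighbour bears on a peak was not tested.

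The genes whose promoter peaks had ranks most like those of Hrd3 in the 3 replicates were sought among 2299 other genes with a promoter peak matched in all 3, by the distance between log10 ranks. The nearest was Fhos, which encodes a formin (distance 0.153, ranks 58, 125 and 62), followed by CG9004 and mRpL23, a mitochondrial ribosomal protein gene, which share a peak (distance 0.173, ranks 54, 119 and 44).

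Neither the full elements tied to the unfolded protein response nor the other full bZIP sites searched were found at these peaks. The cAMP response element TGACGTCA, the Xbp1-type element TGACGTGG, the ER stress element (CCAAT followed after 9 bases by CCACG), the C/EBP-ATF element TGATGCAA, the AP-1 site TGACTCA and the PAR site TTACGTAA were each searched on both strands, in the windows around the 13 summits and in the promoters of the 10 genes, from 250 bp upstream of each start site to 50 bp downstream, and had no match. In this order, they were in 0.173%, 0.0576%, 0.0192%, 0.192%, 0.960% and 0.154% of all 5208 summit windows. In promoters they were at 0.724%, 0.516%, 0.0215%, 1.09%, 3.43% and 0.588% of all protein-coding genes, so few matches at 10 genes could be found. The core TGACG, which the first and the second of them contain, was in 2 of the 13 windows, against 6.72% of all and 9.84% of windows flanking the summits, 27 bp from the summit at Hrd3 and 35 bp at Ire1. In the promoters it was found at 7 of the 10 genes, all but Gcn2, ERp60 and sip3, against 29.7% of all protein-coding genes. The number of start sites raises this count, since Hsc70-3 has 4 and PEK 3. Of the other motifs, the DRE element TATCGATA was in the promoters of Gcn2, Pdi and sip3 (10.2% of all genes) and the Motif 1 core GGTCACAC in those of Ire1, PEK and Sec61alpha (8.71%). The parts of the ER stress element, CCAAT and CCACG, were at 4 and 2 genes (53.3% and 28.8%), the FOXO site TGTTTAC at 2 (11.6%), CACGTG and GAGAGAG at 1 each (5.30% and 9.08%), and TATAAAAG at none (6.67%). The 3 genes with the DRE element had no optimal promoter peak, and 5 of the 10 genes had one. This overlap was not counted over all genes. Over all optimal peaks the DRE element was in 1.498% of summit windows and 0.298% of flanking windows. Apart from TGACG, the 13 summit windows held CCACG next to Pdi and the DRE element past the 3' end of Hrd3. They also held the Motif 1 core in the window inside eEF1alpha1. The FOXO site was in the ERp60 promoter window and in the window past the 3' end of ERp60. Shares over all 5208 summit windows were 5.396% for CCACG, 1.498% for the DRE element, 1.094% for the Motif 1 core and 4.301% for FOXO. A match is a description of letters and not a binding site.

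Hsc70-3 held 5 of the 14 TGACG matches at the 10 genes, and 3 of them continue as TGACGTG. They are shown because the same stretch recurs at different start sites of the gene; the capitals mark TGACG, and this longer form was looked at after the sequences had been seen.
Hsc70-3, 89 bp upstream of a start site (chrX:11806430-11806454, minus strand): gatctaccacTGACGtgtctttttg
Hsc70-3, 53 bp upstream of another (chrX:11807158-11807182, plus strand): cacctaccacTGACGtgtcgatgag
Hsc70-3, 12 bp downstream of another (chrX:11805097-11805121, minus strand): gtgattgtgtTGACGtgtacaaaaa
The first and the second share the 16 bases ctaccacTGACGtgtc, on opposite strands. The nearest pooled summit was 29 bp from the first and 288 bp from the second, neither of them in the optimal list. TGACGTG was in the promoters of 2.02% of all protein-coding genes and of Hsc70-3 alone among the 10, and in 0.326% of the optimal summit windows.

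Other genes of the same pathways were taken from a list of 75 symbols in 6 roles, of which 71 were found, 61 of them outside the 10 genes. A promoter peak was found at 23 of the 61 (37.7%), against 20.6% of all protein-coding genes. Of the 23, 13 were shared with another gene, close to the 56.6% over all genes with a promoter peak. Their median signal was 335.8, against 294.0 over all promoter peaks. Also 13 of the 23 were matched in the strongest regions of all 3 replicates, close to the 59.6% over all genes with a promoter peak. With replicate 1 left out, 14 of them were matched in the strongest regions of both remaining replicates, which 65.2% of all genes with a promoter peak were. The lists were drawn up with earlier results of these data known, and no test was made.

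The machinery that brings proteins to the ER membrane is the longest of the 6 lists and had promoter peaks at 10 of its 19 genes. Of these 10 peaks 6 were shared with another gene and 5 were matched in the strongest regions of all 3 replicates. The strongest was at TRAM (chrX:935160-935518, signal 1415, rank 87), a translocating chain-associated membrane protein gene, with ranks of 97, 93 and 86 in replicates 1, 2 and 4 and no other start site in its promoter. Next came Trp1, which encodes the fly Sec62 (signal 974, rank 229), Spase22-23, a signal peptidase subunit gene (579, shared with mask), and Srp14 of the signal recognition particle (374, shared with EloB and with no match in replicate 4). Sec61beta and Srp19 had a match in 1 replicate each. In N-glycosylation 3 of 7 genes had one, namely Stt3A, a catalytic subunit of the oligosaccharyltransferase (1290.3, shared with bves), Dad1 (772, shared with CG13384) and CG33303 (335.8, shared with dpr19). In ER-associated degradation, outside Hrd3 and sip3, 3 of 10 had one, at Herp (694), Faf2 (469) and Edem1 (264), and all 3 were shared.

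The lumenal folding factors and the effectors of the response made up the other 3 lists. Among oxidative folding genes 2 of 8 had a promoter peak, at prtp, a thioredoxin-domain protein of the ER (621), and Ero1L, the oxidase that recharges disulfide isomerases (166). Among chaperones and lectins it was 3 of 11, at the calnexin gene Cnx99A (319), the calreticulin gene Calr (202) and P58IPK (199), none of them shared and none matched in the strongest regions of all 3 replicates. Of the effectors of the unfolded protein response 2 of 6 had one, Xbp1 and Nmdmc, a mitochondrial folate enzyme gene, at ranks 871 and 1564. The peak at Nmdmc was shared with Rel and Mst85C, and that at Xbp1 was not shared. Atf6, crc (the fly ATF4), PPP1R15 and eIF2alpha had none. With 6 to 19 genes in a role, the shares are not ordered here.

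**Figure D4:**
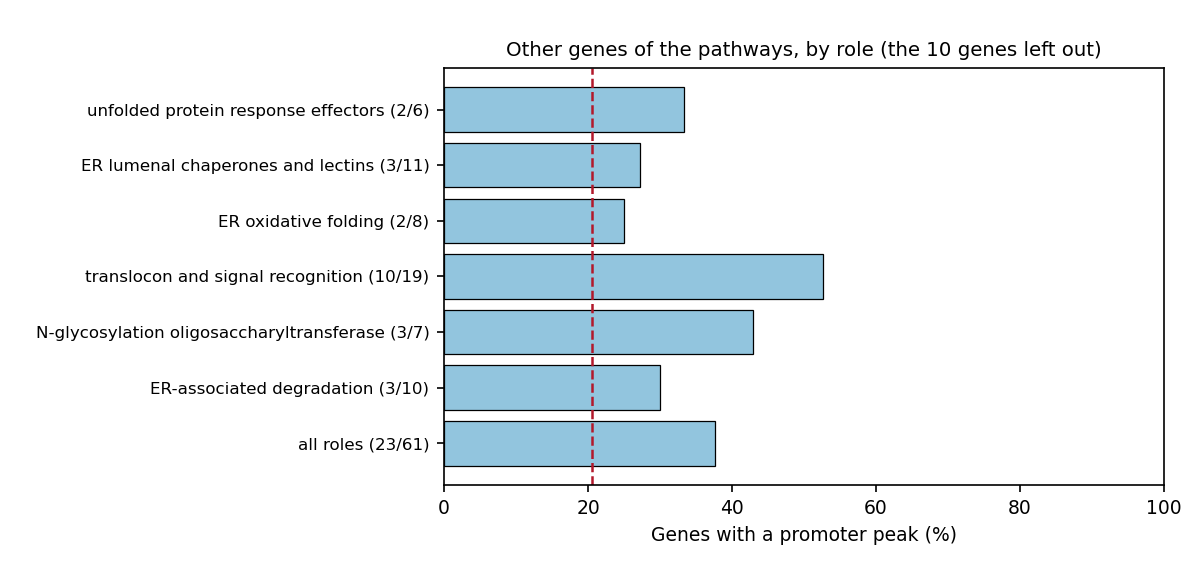
Percent of the other pathway genes with an optimal promoter peak, by role, with the 10 genes left out; bars show the share, the labels give the counts behind it, and the dashed line is the 20.6% of all protein-coding genes. The counts run from 2 of 6 and 2 of 8 to 10 of 19, so a single gene moves most bars visibly.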

How the data were processed

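The deposited dm6 lists were used: the authors' optimal list (by irreproducible discovery rate), the pooled list and the list of each of 3 replicates. According to the deposited inventories, the 3 alignments and a control gave the pooled list, and the replicate and pooled lists gave the optimal one. The sources used here do not name the caller, the aligner or the rate cutoff. Column 7 holds the signal value given by the authors' caller, with no stated normalization, and column 9 a −log10 q value as deposited, 2.90 or more in the optimal list; signal set the ranks. Embryos were sonicated to 200 to 800 bp per the labels. The dm3 lists were not used.

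The 10 genes, the list of 75 symbols and the 15 motifs were chosen with earlier results of these data known, so no count is independent support. The symbols TRAPalpha, Os9, March6 and Ubxn4 had no single match and 1 symbol was read through a synonym. Genes came from Ensembl release 115; the RefSeq genome has ATG at the first coding base of 99.5% of 15231 annotated plus-strand transcripts. Genes named are the 10, those sharing their promoter peaks, up to 4 per role with the strongest promoter peak, and the nearest by rank to Hrd3; genes next to a peak, genes lacking one in a role and the TGACGTG form were named after values were seen. A match was a summit within 100 bp, and the strongest such region was taken. There is 1 group, so no test between groups was made, and n = 3 spreads are between replicates from separate biosamples of the same line. Alternatives changed the distances, kept the stronger peaks or those found in every replicate, used replicate lists, or left out each replicate. The counting was tested on simulated peaks. Software was matplotlib 3.10.9, pandas 2.3.3, scipy 1.17.1, numpy 2.4.6 and Python 3.11.15.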

Additional observations from a re-analysis of the deposited data

How the results depend on the processing

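Of 50 alternatives to the 6 counts over the 10 genes and the wider pathway, 46 stayed within 1.5 times the reported count. The number of the 10 genes with a promoter peak was 4 to 7, where 12.3% to 23.7% of all protein-coding genes had one. The number with a summit inside or nearby was 6 to 9, with 9 at 5 kb and in the replicate 2 list. Its share over all genes was computed only for the optimal list at 2 kb. Of the 13 summits, 4 were matched in all 3 replicates at 50 bp, against 9 at 100 bp; the cause was not tested. Among the 61 other pathway genes, 23 promoter peaks became 15 in the stronger part of the optimal list and 13 when matched in all 3 replicates, both of which keep fewer peaks by construction (12.3% and 12.5% of all genes). Leaving out a replicate and asking for a match in both others gave 14 to 17, with 14 without replicate 1. Depth is unknown, so a region missing from a list is not shown to lack signal.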
